A study of Homo sapiens with 6 samples.

Results

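The DNA replication machinery was described through 34 genes, listed by name and looked up by Entrez gene ID in the deposited counts. The file holds 28395 genes, of which 13950 carried enough counts to be tested, and all 34 replication genes were among the tested ones. They cover the origin recognition complex, the licensing factors, the MCM2-7 helicase, the factors that activate it, the replicative polymerases and primase, the sliding clamp and its loader, the processing of lagging-strand fragments, and ribonucleotide reductase.

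The study profiled MDA-MB-468, a line from a human breast cancer of the triple-negative kind, and MDA-MB-468-PR, a derivative made in-house by keeping the parental cells in 3 to 4.5 nM paclitaxel, a microtubule-stabilising drug, for 2 months. Each group had 3 libraries, called control and resistant here, and all 6 are labelled untreated, so the drug exposure belongs to the history of the resistant cells. Cells were grown in serum-supplemented DMEM. Control 1 and resistant 1 form a 2020 batch, and the other libraries form a 2021 batch. The resistant group stands for a single derivative, and the labels do not say whether its replicates were separate cultures, and the p-values below therefore reflect library-to-library spread that may be technical.

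As background, replication is prepared when the origin recognition complex, CDC6 and CDT1 load the ring-shaped MCM2-7 helicase onto DNA, a step that geminin blocks once S phase has begun. The kinase CDC7, CDC45 and the GINS complex then turn the loaded rings into active helicases. Polymerase alpha with primase starts each strand, polymerases delta and epsilon extend it on the PCNA clamp, and many of these genes are transcribed in late G1 under E2F factors.

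Total counts ran from 37889818 to 93680129 a library. Levels are CPM (counts scaled to library size) after TMM scaling, and differences are log2 of resistant over control with the batch as a term, given with the standard error. A gene is said to rise or fall only at a Benjamini-Hochberg adjusted p below 0.05 over all 13950 genes in edgeR's quasi-likelihood test. By that rule 11.7% of all tested genes differed between resistant and control, 6.23% higher and 5.48% lower. The labelled line fitted its defining markers: EPCAM, KRT8 and KRT18 were abundant, PGR had no count, and RB1, which this line is known to lack, stood at 1.47 to 2.40 CPM. EGFR, which the line is known to overexpress, ranged from 2908 to 7370 CPM and rose by 0.69 ± 0.15 (adjusted p = 0.0199). ESR1 stood at 0.737 to 4.55 CPM and ERBB2 at 93.5 to 138 CPM. Of 5 immune markers, PTPRC and CD3E were at or near 0, while CD14 was at 6.51 to 18.7 CPM. The list, mostly CD14, summed to 8.65 to 20.97 CPM in control and 12.1 to 18.9 CPM in resistant libraries. Of 5 fibroblast markers LUM was at 0 and DCN at or near 0, while COL1A1 was at 22.4 to 30.3 CPM. The list, mostly COL1A1, summed to 24.8 to 30.97 CPM in control and 23.8 to 28.5 CPM in resistant libraries. Of 5 endothelial markers PECAM1 was at most 0.769 CPM, and the list, mostly KDR, summed to 9.58 to 26.1 CPM in control and 15.8 to 66.2 CPM in resistant libraries.

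None of the 34 replication genes rose and 4 fell: POLA1, MCM3, GMNN and GINS2. Of these, POLA1, MCM3 and GMNN lie in stretches of chromosome X and chromosome 6 where most genes were lower in the resistant libraries, and they are described apart. Of the 31 other members GINS2 alone fell, which is 3.23%, beside 3.00% of all tested genes outside such stretches. The median difference of those 31 was -0.21, with 23 below 0 and 8 above 0, whereas 48.7% of tested genes outside the stretches were below 0. All 34 members had a median of -0.22 on the log2 scale, against -0.00 for all tested genes. Control 2 carried part of that median: without this library it was -0.13.

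**Figure D1:**
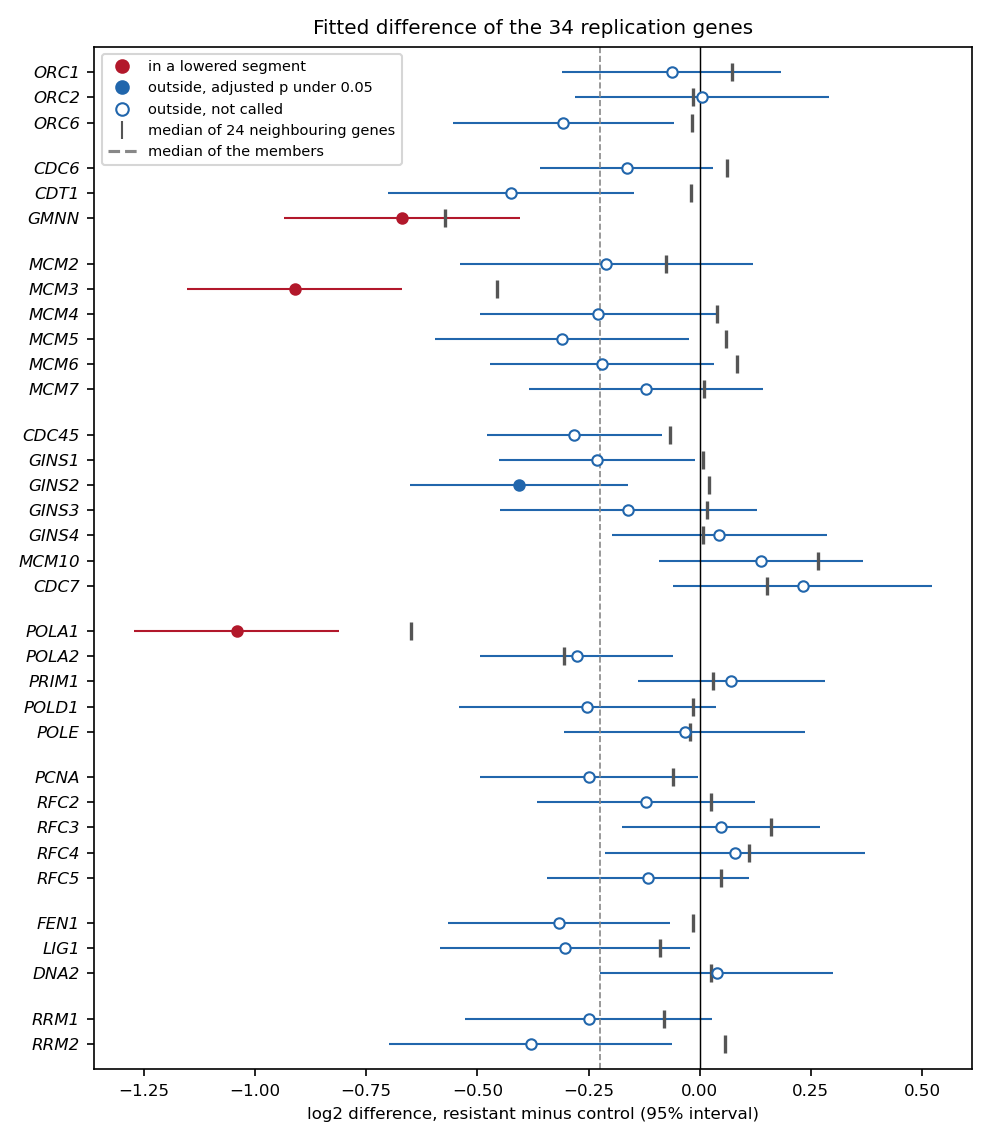
Fitted log2 difference, resistant minus control, of each of the 34 replication genes with its 95% interval, grouped by role. Filled points passed the test, red points lie in stretches of lowered genes, grey ticks give the median of the 24 tested genes nearest to each member, and the dashed line is the median of the members, -0.22.

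Promoter sequences of the genes that fell are shown because E2F-type letters were found in all 4 of them, and MCM6 is added, after its values were seen, as a helicase subunit with the most such matches and no call. The sequences are RefSeq's, on GRCh38.p14, and reach from 250 bases before to 50 bases after each gene's start. They are cut here to the longest stretch with at most 30 bases in annotated exons. Capitals mark TTTGGCGC, TTTCCCGC, TTTGCCGC or TTTCGCGC on either strand, and each line reads 5′ to 3′ along the gene. GMNN is at chr6:24775215-24775412 on the plus strand, MCM3 at chr6:52284852-52284992 on the minus strand, POLA1 at chrX:24693668-24693948 on the plus strand, GINS2 at chr16:85688970-85689204 on the minus strand and MCM6 at chr2:135876397-135876693 on the minus strand.
GMNN: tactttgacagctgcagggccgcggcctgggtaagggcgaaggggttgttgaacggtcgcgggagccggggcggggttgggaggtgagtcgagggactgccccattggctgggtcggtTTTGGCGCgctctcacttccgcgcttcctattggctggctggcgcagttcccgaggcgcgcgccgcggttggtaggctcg
MCM3: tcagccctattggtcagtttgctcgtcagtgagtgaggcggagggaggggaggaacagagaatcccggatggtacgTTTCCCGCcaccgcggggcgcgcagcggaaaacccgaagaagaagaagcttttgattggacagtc
POLA1: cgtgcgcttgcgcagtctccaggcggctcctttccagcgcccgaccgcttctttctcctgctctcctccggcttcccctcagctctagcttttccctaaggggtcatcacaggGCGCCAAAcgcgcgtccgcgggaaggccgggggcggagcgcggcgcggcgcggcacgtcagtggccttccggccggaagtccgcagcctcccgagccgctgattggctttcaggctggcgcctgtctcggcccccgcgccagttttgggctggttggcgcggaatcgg
GINS2: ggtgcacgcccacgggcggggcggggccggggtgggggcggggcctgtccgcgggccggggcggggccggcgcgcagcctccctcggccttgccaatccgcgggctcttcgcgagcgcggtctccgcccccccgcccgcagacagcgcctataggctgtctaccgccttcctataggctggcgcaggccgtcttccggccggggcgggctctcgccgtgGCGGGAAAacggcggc
MCM6: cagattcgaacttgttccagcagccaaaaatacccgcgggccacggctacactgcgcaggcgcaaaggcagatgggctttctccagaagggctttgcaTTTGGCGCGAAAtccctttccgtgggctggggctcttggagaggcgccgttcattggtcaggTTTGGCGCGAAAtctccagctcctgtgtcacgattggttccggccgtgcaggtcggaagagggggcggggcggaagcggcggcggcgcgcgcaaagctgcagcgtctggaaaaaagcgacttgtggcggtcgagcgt

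Positions count back from the start, with the leftmost letter of a match given. GMNN has 1 match, at -80, and another start of GMNN in the table has none. POLA1 has 1 at -137 and GINS2 has 1 at -31. MCM3 has 1 at -174 and another, TTTCGCGC, at -4, which is outside the printed stretch. MCM6 has 4, at -152, -148, -90 and -86, in pairs that overlap and read TTTGGCGCGAAA. The table held promoters of 30 of the 34 members and not of MCM4, MCM5, GINS4 and DNA2. At least 1 of the 4 motifs was found in 17 of these 30 members (56.7%), beside 724 of 11090 tested genes with a promoter (6.53%) and 3.99% of all 27305 genes in the table. The CCAAT box, searched as CCAAT on both strands, was in 19 of 30 members (63.3%) and in 43.0% of tested genes. TTTGAA or TTTAAA, the core of the element found in many mitotic genes, was in 3 of 30 members (10%) and in 21.8% of tested genes. Outside the lowered stretches, the 14 members with an E2F-type match had a median difference of -0.21 and the 13 without one had -0.12, and both sets held members above and below 0.

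Origin recognition genes did not pass the test. ORC1, the ATPase subunit that is made anew each cycle, was at 58.2, 79.3 and 62.2 CPM in control 1 to 3 and 55.4, 67.2 and 68.6 CPM in resistant 1 to 3. The groups overlapped, with control 2 highest, and the difference was -0.06 ± 0.11 (adjusted p = 0.753). ORC2, a core subunit, was at 0.00 ± 0.13, with a 95% interval of -0.28 to 0.29. ORC6, the smallest subunit, was at 24.5, 31.8 and 36.4 CPM in control and 17.6, 28.9 and 29.5 CPM in resistant libraries. Both 2020 libraries were below the other libraries of their group, and within 2021 both resistant values were below both control values. The pooled difference was -0.31 ± 0.11 (adjusted p = 0.111), and ORC6 differed between batches, higher in 2021 (adjusted p = 0.0122).

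Among the licensing genes, geminin was the one that fell. GMNN encodes geminin, the inhibitor that holds CDT1 away from DNA, and lies on chromosome 6 from 24774937 to 24786099. It was at 130.0, 87.5 and 115 CPM in control and 82.0, 61.6 and 65.3 CPM in resistant libraries. Every resistant value was below every control value, although resistant 1 came close to control 2. The mean went from 111 ± 21.6 to 69.6 ± 10.8 CPM (SD, n = 3 each), a difference of -0.67 ± 0.12 or 1.59-fold (adjusted p = 0.00836). It was -0.67 in 2020 and -0.66 in 2021. Without resistant 3 the adjusted p was 0.0511, and without the batch term it was 0.114.

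CDT1, the loader that geminin inhibits, was at 68.9, 117 and 88.0 CPM in control and 57.0, 73.4 and 71.5 CPM in resistant libraries. Within each batch the resistant values were the lower ones, but control 1 was below resistant 2 and 3. The difference of -0.42 ± 0.12 missed the threshold (adjusted p = 0.0578). Leaving out control 2 gave an adjusted p of 0.0474 and leaving out control 3 gave 0.00952, so the call for CDT1 turned on single control libraries. CDC6, the ATPase that works with CDT1, was at 89.6, 90.1 and 88.4 CPM in control and 80.1, 78.4 and 80.7 CPM in resistant libraries. Its groups did not overlap and its libraries were the most even of the licensing genes, yet the difference of -0.16 ± 0.09 did not pass (adjusted p = 0.262). The ratio of CDT1 to GMNN, in CPM, was 0.530, 1.33 and 0.767 in control and 0.695, 1.19 and 1.10 in resistant libraries. These ratios overlapped, with both 2020 libraries lowest.

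All 6 subunits of the MCM2-7 ring, the helicase that opens the duplex, were below 0, with a median of -0.22, and MCM3 alone fell. MCM3 lies on chromosome 6 from 52264015 to 52284742 and was at 301, 359 and 316 CPM in control and 163, 183 and 173 CPM in resistant libraries. The lowest control value was well above the highest resistant one. The mean went from 325 ± 30.4 to 173 ± 10.2 CPM (SD, n = 3 each), a difference of -0.91 ± 0.11 or 1.88-fold (adjusted p = 0.0022). It was -0.89 in 2020 and -0.92 in 2021, and it stayed a call under each alternative setting and without each library.

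The other 5 ring subunits did not pass. MCM6 was at 316, 346 and 309 CPM in control and 301, 268 and 267 CPM in resistant libraries, without overlap and with resistant 1 close to control 3 (-0.22 ± 0.11, adjusted p = 0.250). MCM2 was at 118, 208.5 and 142 CPM in control and 109.9, 144 and 147 CPM in resistant libraries. Control 2 stood high and the remaining values overlapped (-0.21 ± 0.14, adjusted p = 0.40). MCM4, MCM5 and MCM7 also overlapped, at -0.23, -0.31 and -0.12, with adjusted p of 0.256, 0.158 and 0.551. For each of these 3, control 2 was the highest library and resistant 1 the lowest. The MCM5 95% interval, -0.59 to -0.02, lay below 0 before adjustment, and MCM5 was called without control 3 (adjusted p = 0.0393). MCM7 overlaps AP4M1 by 604 bases, and reads of the shared stretch cannot be assigned here.

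The share of MCM3 among the ring's transcripts was then computed in each library. Per kilobase of coding sequence, it held 20.1%, 18.1% and 19.2% of the summed MCM2-7 level in control and 12.5%, 12.8% and 12.3% in resistant libraries. No resistant share reached a control share, and the mean went from 19.1% ± 0.977 to 12.5% ± 0.284 (SD, n = 3 each). The share of MCM7, also a ring subunit, was 29.4% ± 0.861 in control and 33.3% ± 0.664 in resistant libraries. Shares add up to the whole, so a lower MCM3 raises the share of MCM7 by arithmetic, while the MCM7 level was at -0.12. With 3 against 3 libraries an exact two-sided permutation test cannot go below p = 0.1, which both shares reached, and over the 16 shares computed the adjusted p was 0.229. In CPM, MCM3 was 1.35, 1.19 and 1.28 times the mean of the other 5 subunits in control and 0.771, 0.792 and 0.751 times in resistant libraries, so it went from above that mean to below it in all libraries.

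**Figure D2:**
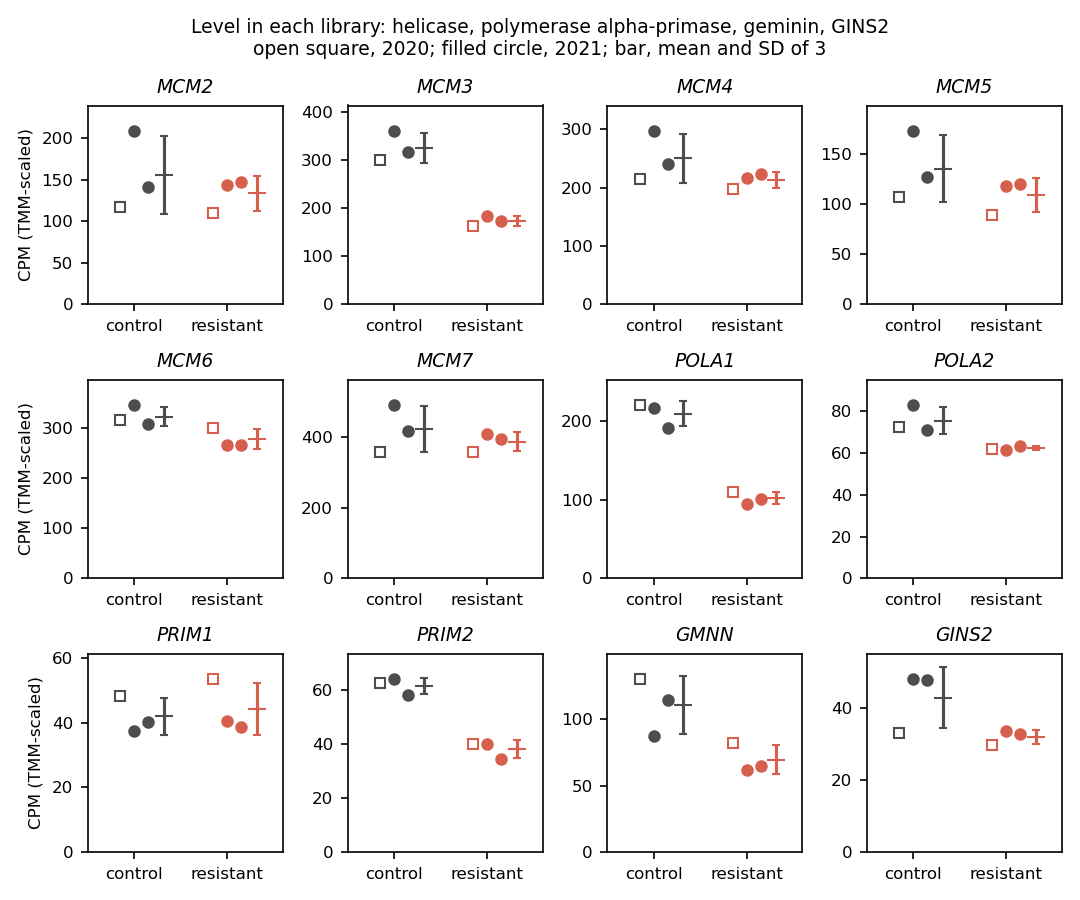
TMM-scaled CPM in each library of the MCM2-7 subunits, the 4 subunits of polymerase alpha-primase, geminin and GINS2, with open squares for 2020, circles for 2021 and bars for the mean and SD of 3. MCM3, POLA1 and PRIM2 sit lower in all 3 resistant libraries, whereas the libraries of MCM2, MCM4, MCM5 and MCM7 overlap.

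Of the 7 genes that activate the helicase, GINS2 fell. GINS2 encodes a subunit of the GINS complex and lies on chromosome 16 from 85676198 to 85688954. It was at 33.0, 47.9 and 47.7 CPM in control and 29.7, 33.5 and 32.8 CPM in resistant libraries. Control 1 lay inside the resistant range, so the groups overlapped, and the separation came from control 2 and 3. The mean went from 42.9 ± 8.54 to 31.98 ± 2.03 CPM (SD, n = 3 each), with a difference of -0.41 ± 0.11 or 1.33-fold (adjusted p = 0.0434). It was -0.15 in 2020 and -0.53 in 2021. The replicate number as a block gave an adjusted p of 0.0664, and GINS2 was no longer called without control 2 (0.0651), control 3 (0.0577), resistant 2 (0.193) or resistant 3 (0.198). GINS2 overlaps GSE1 by 3 bases, and GSE1 was at 0.07 ± 0.11 (adjusted p = 0.738).

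CDC45, which joins GINS on the active helicase, was at 67.3, 77.6 and 74.7 CPM in control and 57.3, 59.9 and 63.2 CPM in resistant libraries. The groups did not overlap and the difference was -0.28 ± 0.09 (adjusted p = 0.0725), while DESeq2 called it (adjusted p = 0.0309). GINS1 was at 33.5, 34.4 and 34.9 CPM in control and 30.05, 30.2 and 27.4 CPM in resistant libraries, also without overlap (-0.23 ± 0.10, adjusted p = 0.172). GINS3 (-0.16 ± 0.13, adjusted p = 0.469) and GINS4 (0.04 ± 0.11, adjusted p = 0.830), the remaining subunits, overlapped. The share of GINS2 in the coding-length level of the GINS complex was 40.9% ± 2.88 in control and 36.2% ± 0.188 in resistant libraries (exact two-sided permutation p = 0.1, the smallest it allows).

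CDC7, the kinase that phosphorylates loaded MCM rings, and MCM10, a scaffold for helicase activation, were the members furthest above 0. CDC7 was at 53.5, 43.6 and 53.2 CPM in control and 52.02, 57.8 and 67.0 CPM in resistant libraries. Its groups overlapped through the 2020 pair, with -0.04 in 2020 and 0.37 in 2021, and the difference was 0.23 ± 0.13 (adjusted p = 0.293). MCM10 was at 61.8, 73.5 and 68.8 CPM in control and 65.4, 72.6 and 86.9 CPM in resistant libraries. Resistant 3 was the highest, and the other values were mixed (0.14 ± 0.10, adjusted p = 0.431).

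Among the polymerase genes POLA1 fell, the largest fold of the 34 members. POLA1 encodes the catalytic subunit of polymerase alpha, which extends the RNA primer, and lies on chromosome X from 24693918 to 24996986. It was at 220.2, 217 and 192 CPM in control and 110.2, 95.2 and 101 CPM in resistant libraries. The groups were far apart, with each resistant library near a level of 100 CPM. The mean went from 209.9 ± 15.6 to 102 ± 7.56 CPM (SD, n = 3 each), a difference of -1.04 ± 0.10 or 2.06-fold (adjusted p = 0.00119), with -1.0 in 2020 and -1.06 in 2021. POLA1 was called under each alternative setting and without each library.

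Of the partners of POLA1, POLA2 and PRIM1 did not pass the test and PRIM2 fell. POLA2, its accessory subunit, was at 72.7, 82.8 and 71.3 CPM in control and 62.2, 61.5 and 63.6 CPM in resistant libraries, without overlap (-0.28 ± 0.10, adjusted p = 0.102). PRIM1, the catalytic primase subunit, was at 48.2, 37.3 and 40.0 CPM in control and 53.3, 40.6 and 38.7 CPM in resistant libraries. These overlapped, with the 2020 libraries higher in both groups (0.07 ± 0.09, adjusted p = 0.668). PRIM2, the large primase subunit and not one of the 34, fell from 61.4 ± 3.03 to 38.1 ± 3.25 CPM (SD, n = 3 each; -0.69 ± 0.10, adjusted p = 0.00411) and lies in the same stretch of chromosome 6 as MCM3. POLA1 was 3.03, 2.62 and 2.69 times POLA2 in control and 1.77, 1.55 and 1.59 times in resistant libraries, in CPM. Per coding length POLA1 held 29.5%, 29.7% and 28.5% of the polymerase alpha-primase level in control and 19.6%, 19.0% and 20.6% in resistant libraries. The share of PRIM1 was 20.4% ± 2.44 in control and 29.6% ± 2.98 in resistant libraries (SD, n = 3 each), also without overlap. Shares of a complex add up to the whole, so lower POLA1 and PRIM2 raise the share of PRIM1 by arithmetic. PRIM1 itself did not pass the test, as given above. The shares of POLA1 and PRIM1 both had the smallest exact permutation p of 0.1 and an adjusted p of 0.229.

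POLD1, the catalytic subunit of the lagging-strand polymerase delta, was at 96.3, 173 and 128 CPM in control and 88.4, 121 and 121 CPM in resistant libraries. Control 2 was the highest and the 2020 libraries the lowest of each group (-0.25 ± 0.13, adjusted p = 0.249). POLE, the catalytic subunit of the leading-strand polymerase epsilon, was at 197, 259 and 208 CPM in control and 191, 215 and 242 CPM in resistant libraries. The groups overlapped throughout, and the difference of -0.03 ± 0.12 had a 95% interval of -0.31 to 0.24.

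PCNA, the sliding clamp, was at 376, 388 and 371 CPM in control and 347, 298 and 310.4 CPM in resistant libraries. No resistant value reached a control value, but the difference of -0.25 ± 0.11 did not pass (adjusted p = 0.182). RFC2 to RFC5, small subunits of the loader that opens the clamp, all overlapped and lay between -0.12 and 0.08, with adjusted p from 0.503 to 0.794. RFC3 was at 74.3, 51.99 and 62.2 CPM in control and 77.1, 58.6 and 59.3 CPM in resistant libraries, and RFC4 at 61.9, 38.6 and 54.1 CPM in control and 62.7, 50.6 and 49.4 CPM in resistant libraries. In both genes the 2020 libraries were the highest of their group and control 2 was the lowest library. RFC5 overlaps WSB2 by 8762 bases and ORC1 overlaps PRPF38A by 4902 bases, and without a stated strand setting their reads cannot be fully told apart.

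Of the genes that finish lagging-strand fragments, FEN1, the nuclease that removes displaced flaps, was at 64.4, 92.8 and 76.9 CPM in control and 54.8, 61.2 and 71.2 CPM in resistant libraries (-0.32 ± 0.11, adjusted p = 0.105). LIG1, the ligase that seals the nicks, was at 102, 169 and 131 CPM in control and 88.3, 110.5 and 125 CPM in resistant libraries (-0.30 ± 0.12, adjusted p = 0.158). In both genes control 2 was highest and resistant 1 lowest, and the groups overlapped. DNA2, a nuclease for long flaps, was at 0.04 ± 0.12 with a 95% interval of -0.22 to 0.30.

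RRM2, the small subunit of ribonucleotide reductase, which makes deoxynucleotides, was at 430.1, 578 and 473 CPM in control and 371, 339.9 and 422 CPM in resistant libraries. The groups did not overlap, though resistant 3 was just below control 1. The difference was -0.38 ± 0.14 (adjusted p = 0.121), and DESeq2 called it (adjusted p = 0.0465). RRM1, the large subunit, was at 287, 272 and 217 CPM in control and 259, 189 and 208 CPM in resistant libraries. It overlapped through resistant 1 (-0.25 ± 0.12, adjusted p = 0.237).

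Across the 34 members, 10 had every resistant library below every control library and none had the reverse, beside 10.2% and 10.7% of all tested genes. The 10 were CDC6, GMNN, MCM3, MCM6, CDC45, GINS1, POLA1, POLA2, PCNA and RRM2. Leaving out MCM3, GMNN and POLA1, they were 7 of 31 (22.6%), beside 7.89% of tested genes outside the lowered stretches. At an unadjusted p below 0.05, 11 of these 31 (35.5%) were lower and none higher, beside 9.86% lower of tested genes outside. All members were measured in the same 6 libraries, so these counts are not independent of one another.

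**Figure D3:**
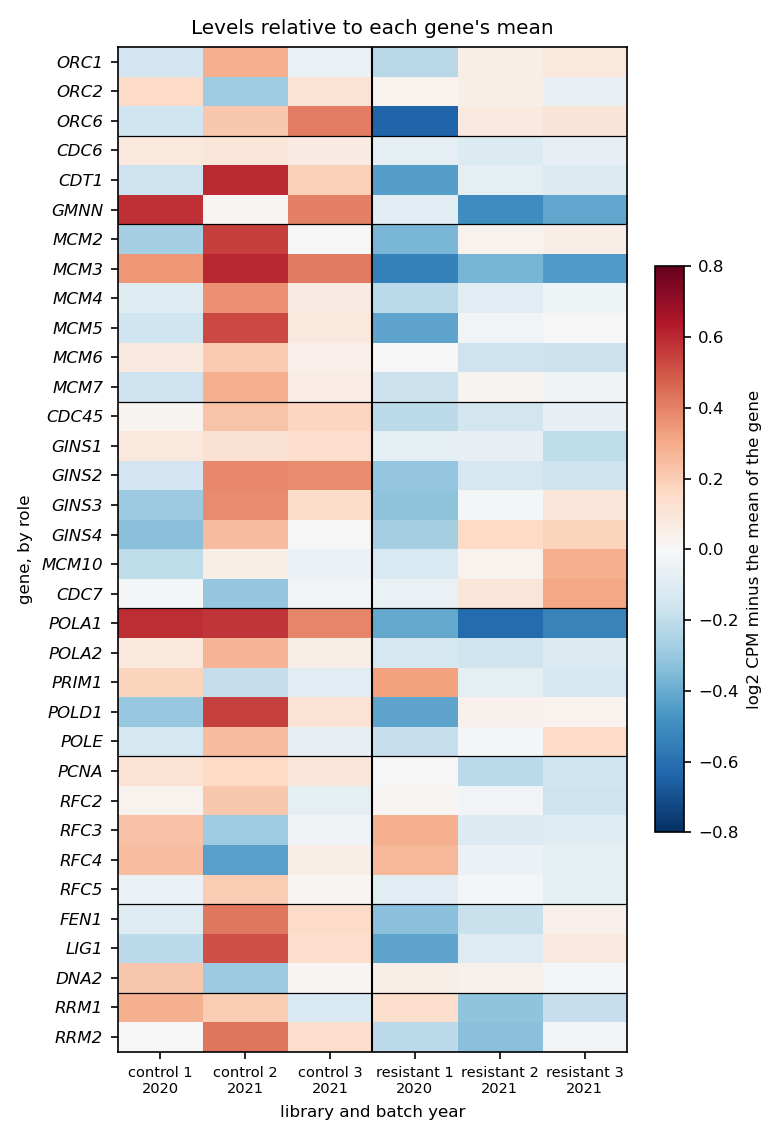
Level of each member in each library as log2 CPM minus the gene's mean over the 6 libraries, by role, with the batch year under each library. Control 2 is the darkest red column in many genes, and MCM3, GMNN and POLA1 are red in control and blue in resistant libraries almost throughout.

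Control 2 stood apart. It was the highest of the 6 libraries for 22 of the 34 members (64.7%), whereas it was highest for 27.2% of all tested genes, and it was lowest for 6 members and for 24.5% of all tested genes. Resistant 1 was lowest for 16 members (47.1%), beside 21.2% of all tested genes. Measured from each gene's mean, the median member was at -0.01, 0.24 and 0.07 in control 1 to 3 and -0.18, -0.07 and -0.06 in resistant 1 to 3. Summed over the 34 members, levels were 4325, 5164 and 4494 CPM in control and 3754, 3797 and 3971 CPM in resistant libraries. The resistant sums were all below the control sums, and the control sums spread more widely. These sums include MCM3, POLA1 and GMNN, which lie in lowered stretches and were far lower in resistant libraries. They therefore carry part of the gap, and sums without them are not given here.

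A list of 20 mitosis and proliferation markers was read in the same way. Their medians from the gene mean were -0.00, 0.32 and 0.06 in control and -0.17, -0.17 and 0.07 in resistant libraries, and control 2 was the highest library for 12 of 20. Resistant 3 was above control 1 and, barely, above control 3 for these markers (0.071 against 0.059). All resistant medians of the replication genes were below the control ones, the closest being -0.063 in resistant 3 and -0.006 in control 1. Both gaps are small, so they do not set the lists apart. In the comparison 18 of 20 were below 0, with a median of -0.23, and none passed the test. Their most abundant gene, MKI67, a marker of cycling cells, ranged from 875 to 1739 CPM in control and from 675 to 1719 CPM in resistant libraries (-0.22 ± 0.21, adjusted p = 0.560). In these bulk samples, fewer cycling cells and less replication RNA in each cell cannot be told apart, and the part of the mitosis markers' shift in the replication genes was not tested.

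The 3 members in lowered stretches were set beside their neighbours. A lowered stretch is a run of windows of 25 tested genes whose median difference is -0.4 or less, and 5 were found. Because the stretches were drawn from these differences, the counts within them are a description. The stretch on chromosome 6 runs from 0.3 to 73.2 Mb and holds 366 tested genes with a median of -0.61, of which 330 were below 0 and 208 (56.8%) were called lower. GMNN and MCM3 are both in it. The stretch on chromosome X runs from 2.8 to 65.5 Mb and holds POLA1 among 193 tested genes with a median of -0.67, of which 130 (67.4%) were called lower.

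The 24 tested genes around GMNN had a median of -0.57, close to GMNN itself at -0.67, and 7 of them were lower than GMNN. Its nearest tested genes were C6orf62 (-0.55, adjusted p = 0.00994) and ACOT13 (-0.55, adjusted p = 0.0177) before it and RIPOR2 (0.33, adjusted p = 0.500) and CARMIL1 (-0.42, adjusted p = 0.0334) after it. Further along, most neighbours counted after GMNN are histone genes transcribed in S phase, from H1-1 (-0.33) to H1-2 (-0.71). Those before GMNN include none, and the part of the histone genes in the median was not tested. MCM3 at -0.91 was lower than the median of its 24 neighbours, -0.46, and than that of the whole stretch, -0.61. Of the neighbours 4 were lower than MCM3: RHAG, PKHD1, TFAP2B and CILK1. Next to MCM3, PKHD1 (-1.24, adjusted p = 0.0515) and TFAP2B (-0.99, adjusted p = 0.133) come before, and PAQR8 (1.16, adjusted p = 0.0428) comes after. RHAG, PKHD1, TFAP2B and PAQR8 had mean levels below 2 CPM in both groups, so they say little about their surroundings. POLA1 at -1.04 was lower than its neighbours' median of -0.65, with 5 of 24 lower still. Before it, PDK3 (-0.61, adjusted p = 0.00408) and ZFX (-0.82, adjusted p = 0.00215) were also called lower. After it the nearest tested genes are MAGEB2 (0.97, adjusted p = 0.261) and MAGEB4 (-3.32, adjusted p = 0.00148), which are 5.5 Mb away. They belong to a family of related genes, and the span of MAGEB4 overlaps that of MAGEB1, so their counts are uncertain.

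**Figure D4:**
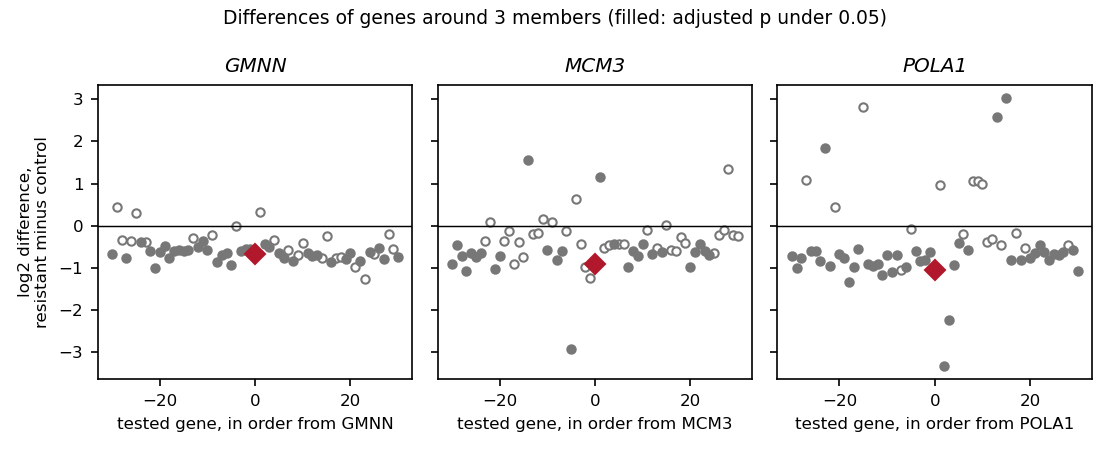
Log2 difference, resistant minus control, of the 30 tested genes on each side of GMNN, MCM3 and POLA1 in chromosome order, with the member as a red diamond and filled points for adjusted p below 0.05. Most neighbours of all 3 genes lie below 0, as the members do, and most genes after GMNN are histone genes.

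No other member lay in a lowered stretch. The neighbours of GINS2 had a median of 0.02, and none of the 24 was lower than GINS2. For CDT1 the median of neighbours was -0.02, with 1 of 24 lower than CDT1, and for RRM2 it was 0.06, also with 1 lower. POLA2 differed from these, since its 24 neighbours had a median of -0.31, about its own -0.28, and 19 of them were below 0. In all, 28 of the 34 members were lower than the median of their neighbours, and 26 of the 34 were below 0. The count against neighbours is not given here for all tested genes, so it has no share to be read against.

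The batches were compared next. Between 2020 and 2021, ORC6, CDT1, MCM5, GINS3, GINS4, POLD1 and LIG1 were higher in 2021, and PRIM1 and RFC3 were lower. These are 7 and 2 of 34, beside 11.5% and 11.4% of all tested genes. ORC6 was at 24.5 and 17.6 CPM in the 2020 control and resistant libraries and between 28.9 and 36.4 CPM in all 2021 libraries. Within batches, the resistant library was below the control library for 29 of 34 members in 2020, and the resistant mean was below for 26 in 2021, with 26 below in both. The members' median was -0.12 in 2020, with 1 library a group, and -0.25 in 2021, with 2. The test of a group by batch interaction in edgeR called none of the 34 members and 0% of all tested genes. None of the members had an unadjusted p below 0.05 in that test, beside 187 of 13950 genes. With 1 library a group in 2020, its spread comes from 2021 alone. It could therefore hardly detect a difference between batches, and the lack of calls does not show that the batches agree.

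**Figure D5:**
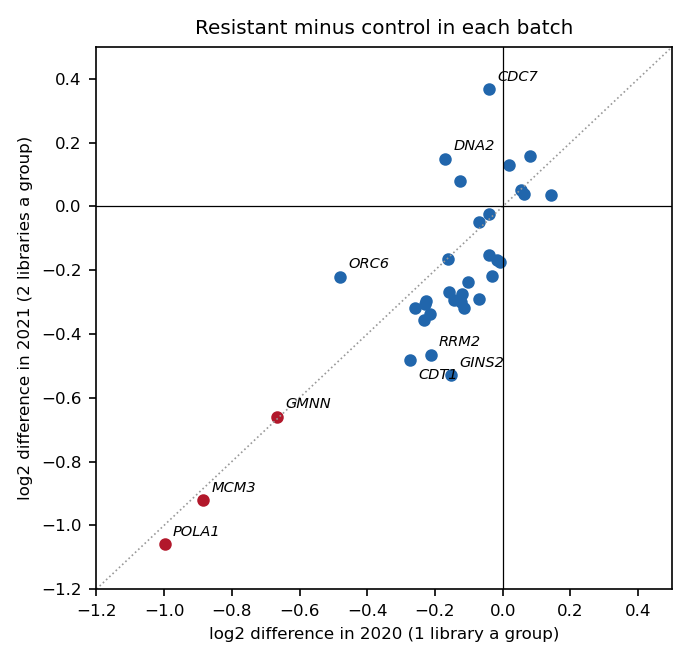
Log2 difference, resistant minus control, of each member in 2020 (x axis, 1 library a group) and in 2021 (y axis, 2 libraries a group), with equality dotted and the members of lowered stretches in red. POLA1, MCM3 and GMNN lie close to the dotted line, and 26 members are below 0 in both batches.

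Levels can be ranked between genes only per length. Per kilobase of coding sequence, PCNA was the most abundant in control libraries at 483 ± 10.9 CPM (SD, n = 3), followed by RRM2 at 367 ± 56.7, MCM7 at 196 ± 30.3 and GMNN at 177 ± 34.4. The spreads of MCM7 and GMNN overlap. MCM6 at 131 ± 8.0 and MCM3 at 127 ± 11.9 also differed by less than their spread. GINS3 was the lowest, at 14.5 ± 3.27. With PRIM2 included, POLA1 stood 19 of 35 in control at 47.7 ± 3.54 and 33 of 35 in resistant libraries at 23.2 ± 1.72, while MCM3 went from 6 to 8. The order depends on the length used. Per kilobase of all exons, PCNA, RRM2 and MCM7 still led in control libraries, but MCM3 (101 CPM) stood above MCM6 (86.7) and GMNN (81.5). Exome capture can favour some exons over others, so the order describes these libraries.

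Other genes of replication were read from companion lists. Of 36 further fork and origin genes none rose and 1 fell, PRIM2, beside 5.48% lower of all tested genes. Of the 36, 27 were below 0, with a median of -0.09. Of 15 genes of nucleotide supply none passed the test, and their median was -0.09. CAD, the most abundant of them and the first enzyme of pyrimidine synthesis, was at 0.05 ± 0.15 (adjusted p = 0.863). None of 9 genes of chromatin assembly and maintenance at forks passed, with a median of -0.10. DNMT1, the maintenance methyltransferase and the most abundant of them, was at -0.19 ± 0.17 (adjusted p = 0.523).

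Of 21 E2F factors and S-phase kinases, 3 fell and none rose, with a median of -0.06. Over all tested genes 5.48% were lower and 6.23% higher, and a list this short cannot be set firmly against those shares. E2F1, an activator of replication genes, was at 52.1, 73.0 and 71.3 CPM in control and 38.9, 53.0 and 55.1 CPM in resistant libraries. The groups overlapped across batches and were apart within each, and the difference was -0.42 ± 0.09 (adjusted p = 0.0157). CCNA2, cyclin A2, was at 113, 137 and 123 CPM in control and 88.7, 89.2 and 107 CPM in resistant libraries, without overlap (-0.39 ± 0.11, adjusted p = 0.0497). E2F3, also an activator, fell by 0.35 ± 0.09 on the log2 scale (adjusted p = 0.0432) and lies in the lowered stretch of chromosome 6. Of 11 tested genes of cell-cycle exit, 2 fell and none rose, beside the same shares of all tested genes. They were the CDK4/6 inhibitors CDKN2C (-0.54 ± 0.15, adjusted p = 0.0483) and CDKN2D (-0.82 ± 0.18, adjusted p = 0.0226). CCNA2 and CDKN2C were only just below the threshold of 0.05, and their calls under other settings are not given here.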

How the data were processed

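RNA was sequenced from 3 control and 3 resistant libraries. The authors deposited whole-number counts per gene, not normalised, in 1 table, with columns assigned through the library names that the labels quote. Per the labels' protocols, 100 ng of RNA went into a KAPA HyperPrep library followed by Twist exome capture. Trimmomatic 0.38, STAR 2.7.8a, featureCounts and GRCh38 are named per the submitters' processing notes. Not given in the sources used here are the featureCounts version, its strand setting, how it treated multi-mapping reads, and which annotation it read.

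Counts were filtered with filterByExpr, scaled by TMM and fitted in edgeR 4.0.16 (R 4.3.3) with batch and group as terms and a robust prior. The fit has 3 residual degrees of freedom, standard errors come from the F statistic, and log2 CPM uses a prior count of 2. It was tested on simulated data. DESeq2 1.42.0 and limma 3.58.1 (voom) served as alternatives, beside other scalings and filters, no batch term, 2021 alone, a replicate block and leaving out each library. Names, positions and promoters come from RefSeq GRCh38.p14, and exons and coding lengths from GENCODE. A floor of 3 counts corresponds to 0.0311 to 0.0808 CPM in these libraries, and covers counting error only. Replicates differed by far more than counting noise, with a chi-square per degree of freedom of 58.8 to 179.8.

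Members and lists were chosen with earlier results of these data known. All 34 members are named, and from each companion list up to 3 called genes a direction, or its most abundant gene where none was called. EGFR, ESR1, PGR, ERBB2, RB1 and the 2 tested genes on each side of a member in a lowered stretch are also named. Some genes that this rule takes are not reported here. Whether same-numbered libraries pair was checked across genes: their deviations from the group means correlated at 0.729, 0.143 and 0.155, all over 0.1, and they were taken as pairs in a blocked alternative. Within 2021 differently numbered libraries were closer: control 2 and resistant 3 correlated at 0.57, and resistant 2 and control 3 at 0.477, so the pairing is uncertain. The first pair is the 2020 batch.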

Additional observations from a re-analysis of the deposited data

How the results depend on the processing

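Of the 34 replication genes, 4 were called, all lower. That count, and the count called lower, was 7 with DESeq2, which added CDT1, CDC45 and RRM2, and 2 without a batch term. It ranged from 2 to 6 when each library was left out, with 2 without resistant 3. No member was called higher under any setting, and no called difference changed sign. The uncalled differences of 7 members, all within 0.08 of 0, changed sign under some setting: ORC1, ORC2, POLE, RFC3, RFC4 and DNA2 without control 2, GINS4 without control 3, ORC2, POLE and DNA2 without resistant 2, POLE with upper quartile scaling and ORC2 without a filter. Leaving out each library gave medians from -0.28 to -0.13. Over all genes the 1633 calls became 362 without a batch term, 2286 without a filter and 1012 in 2021 alone. They ranged from 617 to 1985 when each library was left out. The count over all genes is not given here for DESeq2, so its 7 members have no share to be read against. The 9 members called between batches became 14 without a filter on low counts, again with no count over all genes given here. With the replicate block 1303 genes were called, and it removed the call of GINS2 and changed no other member's call. Crossing the numbers of the 2021 pairs, chosen after seeing the data, called 7 members, 7 of them lower, and 2254 genes. A fit without the robust prior was also added after seeing the data. GINS2 further lost its call with upper quartile scaling (adjusted p = 0.0603) and with a mean of at least 1 CPM (0.0512), and CDT1 gained one without a filter (0.00882). The cause of these changes was not tested. Depth was ample for the members: the least abundant, GINS3, had 308 to 1066 counts a library.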
